A study of Mus musculus with 24 samples.

Results

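The genes flanking Stk11 on mouse chromosome 10 were followed across 24 RNA-seq libraries from 4 lines of fibroblasts. Stk11 encodes the tumour suppressor kinase LKB1. The group holds the protein-coding genes that GENCODE places, by gene start, between positions 78000000 and 82000000 of chromosome 10 in the GRCm38 build. Stk11 itself and 3 genes of the respiratory chain and ATP synthase (Atp5d, Ndufs7 and Uqcr11) were left out, which left 162 of the 55471 gene IDs in the count tables. The interval was chosen by fold changes of the lines along chromosome 10, foremost Lkb1-/- against wild-type cells, so every comparison of a line with wild type is given below as a description, with no test. Tests were run between lines lacking LKB1 and between IL-1β-treated and untreated cells, and the counts of genes in the former are not independent of the choice.

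The cells were 3T3 mouse embryonic fibroblasts (MEFs). WT cells were compared with Lkb1-/- cells and with DKO A1 and DKO A2, which lack both LKB1 and CRTC2, a coactivator of the transcription factor CREB. The 2 DKO clones were grown from single Lkb1-/- cells after Crtc2 editing with Cas9. Each line was either left untreated or exposed for 6 h to IL-1β, an inflammatory cytokine, with 3 libraries in each of the 8 groups. WT and Lkb1-/- were each represented by 1 line and the double knockout by 2 clones of the same Lkb1-/- cells, so genotype and line cannot be told apart. The labels do not say whether the 3 libraries of a group came from separate cultures, and p-values therefore measure only the spread between these libraries.

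LKB1 phosphorylates AMPK and its relatives, among them the SIK kinases, which hold CRTC proteins in the cytoplasm. Genes that lie close together on a chromosome are commonly gained or lost together when a cell line gains or loses a whole chromosome or a large piece of it. Immortalised 3T3 lines commonly carry abnormal numbers of chromosomes. The dosage of chromosome 10 was not measured here. In bulk RNA, fewer copies of a gene and less RNA from each copy cannot be told apart.

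The genes around Stk11 are closely packed and serve many functions. They include the translation factor Eef2, the ribosomal protein gene Rps15, the splicing regulator Ptbp1, the chromatin genes Dot1l, Mbd3 and Sirt6, the stress gene Gadd45b and the lipid peroxidase gene Gpx4. Of the 162 genes, 68 start before Stk11 and 94 after it. After the filter on low counts, 115 were tested (40 before and 75 after Stk11) among 17522 genes in all, and 47 were not. Of those 47, 14 had 0 counts in every library. None of the 10 olfactory receptor (Olfr) genes, with at most 2 counts in any library, and none of the 4 vomeronasal receptor (Vmn2r) genes passed. Both Zfp genes passed, with at most 48 counts in a library. The filter keeps a gene that is high in only 1 line, so a gene such as Apc2, near 0 in WT cells, entered through the other lines. A narrower set of 82 genes, with a mean log2 CPM (read counts scaled to library size) above 3 over all libraries, was described beside the 115. That mean has the same limit. Plppr3 and Efna2 (mean log2 CPM 3.02 and 3.06), near 0 or low in WT, are in the set through the other lines.

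Total counts per library ran from 38842901 to 48594394. Fibroblast markers summed to 5730 to 11000 CPM in every library, and 9 of 10 had a mean above 1 CPM in WT and 8 of 10 in the other lines. Thy1 was at 0 to 0.0623 CPM, and S100a4 was low, with group means of 0.637 to 0.965 CPM outside WT. Single markers differed widely between lines, such as Pdgfra, with a mean of 4.58 CPM in untreated WT and 342 CPM in Lkb1-/- cells, and Col1a2, with 780 and 63 CPM. Epithelial markers summed to at most 0.447 CPM. The leukocyte list summed to 2.39 to 6.82 CPM, nearly all of it Cd68, with Ptprc at most 0.0247 CPM. The endothelial list differed by line, at 0.37 to 0.595 CPM in WT and 2.06 to 3.8 CPM elsewhere, almost wholly from Kdr.

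Stk11 lies at positions 80115803 to 80130682 on the plus strand. In untreated WT libraries its level was 84.6, 85.5 and 87.9 CPM, and after IL-1β it was 86.3, 83.4 and 84.4 CPM. In the untreated libraries it was 18.7, 17 and 16.3 CPM in Lkb1-/- cells, 21.8, 21.6 and 20.7 CPM in DKO A1, and 18.9, 17.4 and 17.9 CPM in DKO A2. No library of an Lkb1-/- line reached the lowest WT value, which matches the labels. Crtc2, on another chromosome, was at 61.2, 56.5 and 57.5 CPM in untreated WT and 82.1, 79.1 and 82.3 CPM in Lkb1-/- cells. It was at 45.2, 41.1 and 42.4 CPM in DKO A1 and 50.6, 48.9 and 50 CPM in DKO A2. Crtc2 transcript thus remained in both clones, and an edit in the first exon need not remove it.

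The promoters of 4 genes whose values recur below are shown because they stand for the main patterns: Cnn2 (calponin 2, an actin-binding protein) and Gadd45b for genes lower in Lkb1-/- cells, and Plppr3 (a lipid phosphatase-related protein of neurons) and Efna2 (the ligand ephrin-A2) for genes near 0 or low in WT. Each is the stretch of 250 bases before the RefSeq start in GRCm38.p6, 5′ to 3′ on the gene's own strand. Capitals mark the CCAAT box (CCAAT or ATTGG) and the GC box (GGGCGG or CCGCCC), searched on both strands.
Cnn2 (chr10:79988350-79988599, plus strand): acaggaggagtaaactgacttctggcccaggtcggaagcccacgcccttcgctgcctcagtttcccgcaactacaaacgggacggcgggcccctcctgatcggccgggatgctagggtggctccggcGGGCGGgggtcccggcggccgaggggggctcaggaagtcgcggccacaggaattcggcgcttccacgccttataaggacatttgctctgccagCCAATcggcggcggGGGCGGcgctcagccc
Gadd45b (chr10:80929841-80930090, plus strand): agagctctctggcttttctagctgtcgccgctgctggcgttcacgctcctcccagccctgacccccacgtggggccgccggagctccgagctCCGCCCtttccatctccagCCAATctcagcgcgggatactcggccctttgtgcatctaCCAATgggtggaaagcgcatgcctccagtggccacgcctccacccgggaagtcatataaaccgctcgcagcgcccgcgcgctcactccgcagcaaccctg
Plppr3 (chr10:79874635-79874884, minus strand): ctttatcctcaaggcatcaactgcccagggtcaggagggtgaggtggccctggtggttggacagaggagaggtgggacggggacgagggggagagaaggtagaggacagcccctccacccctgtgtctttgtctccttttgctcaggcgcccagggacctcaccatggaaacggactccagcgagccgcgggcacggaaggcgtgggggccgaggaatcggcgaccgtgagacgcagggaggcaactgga
Efna2 (chr10:80179232-80179481, plus strand): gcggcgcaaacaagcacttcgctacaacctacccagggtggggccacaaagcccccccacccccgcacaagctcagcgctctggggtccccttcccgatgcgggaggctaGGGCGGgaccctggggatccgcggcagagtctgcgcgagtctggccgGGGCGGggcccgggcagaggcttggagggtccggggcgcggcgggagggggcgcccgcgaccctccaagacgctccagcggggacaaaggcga

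None of the 4 stretches held the short CREB site (TGACG or CGTCA) or the NF-kB motif, searched on both strands. RefSeq promoters were found for 132 of the 162 genes, and for 96 of the 115 tested genes there were 131 promoters. Among those 131, 21.4% held the short CREB site, against 25.8% of the 13900 promoters of all genes tested and 17.8% of all 32851 promoters in the table. The full CREB site (TGACGTCA, which holds the short one) was in 4.58% of the 131, against 2.5% of the promoters of all genes tested. The NF-kB motif was in 0.763%, against 0.36%. The CCAAT box was in 32.1%, against 35.1%. The GC box was in 65.6%, against 56.5%, and in 57.1% of 541 promoters from the rest of chromosome 10. The median GC content was 61.2%, against 59.6% for all genes tested and 60.8% for the rest of chromosome 10. A letter match is a description and says nothing of binding.

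In Lkb1-/- cells most genes around Stk11 had lower levels than in WT, and in the DKO clones the share was closer to that of all genes. In untreated cells, 79 of the 115 genes had a log2 fold change under 0 in Lkb1-/- against WT, where 47.3% of all genes tested did. After IL-1β it was 81 genes, beside 48% of all genes. In DKO A1 48 genes were under 0 untreated and 50 after IL-1β, beside 47.3% and 49.2% of all genes. In DKO A2 58 genes were under 0 untreated and 55 after IL-1β, beside 47.2% and 48.2%. Since the interval was chosen on fold changes of these lines, the counts describe the choice and carry no test.

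The median log2 fold change of the 115 genes was -0.34 in untreated Lkb1-/- against WT, beside 0.04 for all genes tested. After IL-1β it was -0.37, beside 0.03. With no filter on low counts these Lkb1-/- medians were -0.19 and -0.29. In DKO A1 the median was 0.07 untreated and 0.10 after IL-1β. In DKO A2 it was -0.01 untreated and 0.03 after IL-1β. Upper quartile normalization moved the median of all genes by up to 0.11 and turned the sign of the untreated DKO A2 median, to 0.07. Relative to all genes, the treated Lkb1-/- median was -0.40 under either scaling. The rest of chromosome 10 (528 protein-coding genes) lay lower still, at -0.50 untreated and -0.48 after IL-1β in Lkb1-/- cells, -0.10 and -0.08 in DKO A1, and -0.19 and -0.21 in DKO A2.

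The lower medians lay on both sides of Stk11. In untreated Lkb1-/- cells the median was -0.41 over the 40 genes before Stk11 and -0.28 over the 75 after it. In 1-Mb bins, the median was -0.30 from 78 Mb (11 genes), -0.51 from 79 Mb (25 genes), -0.39 from 80 Mb (44 genes) and -0.14 from 81 Mb (35 genes). Just inside the first end, Dnmt3l had 0, 1 and 0 counts in untreated WT and 2, 4 and 3 in untreated Lkb1-/- cells, too few for a fold change, and Icosl had a log2 fold change of 0.10. The genes just outside, 1810043G02Rik and Pfkl, had 0.20 and 0.39. At the other end, Gm32687 and Zfp781 inside had 0.18 and 0.54, and Zfp873 and BC024063 outside had 0.06 and -0.54. Aire, the first gene inside, had too few counts to be tested.

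**Figure D1:**
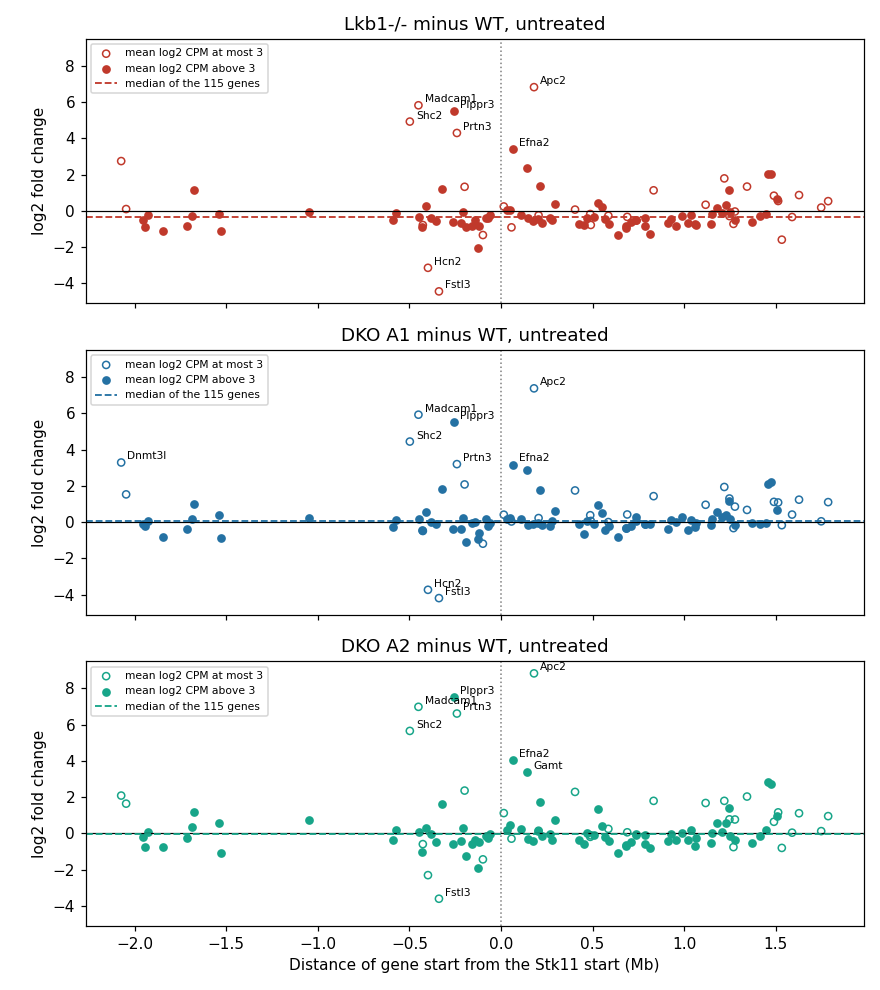
Log2 fold change of the 115 genes against WT in untreated cells, by distance of the gene start from that of Stk11 in Mb, with 1 panel per line. Filled points have a mean log2 CPM above 3, the solid line is 0 and the dashed line the median of the 115 genes, which is -0.34 in Lkb1-/- cells, 0.07 in DKO A1 and -0.01 in DKO A2.

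Of the tested genes nearest to Stk11, all 6 before it had a log2 fold change under 0 in untreated Lkb1-/- cells, and 2 of the 6 after it did. These stand beside 68.7% of the 115 genes and 47.3% of all genes tested, and so few genes cannot compare the sides. In untreated cells the log2 fold change was -2.02 for Cnn2, -0.83 for the lipid transporter Abca7, -1.33 for Arhgap45, -0.41 for the RNA polymerase II subunit Polr2e, -0.39 for Gpx4 and -0.24 for Sbno2, a helicase-family regulator of transcription. After Stk11 it was 0.25 for the calcium channel regulator Cbarp, 0.04 for Midn (midnolin), 0.04 for the cold-inducible RNA-binding protein gene Cirbp, -0.91 for 1600002K03Rik, 3.43 for Efna2 and -0.21 for Mum1. The end of Cbarp, on the minus strand from 80130451, overlaps the end of Stk11. The counts used were those of the strand that matched the genes, which separates such a pair.

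Cnn2 had the lowest fold change among the genes with a mean log2 CPM above 3. Its level was 476, 497 and 489 CPM in untreated WT and 115, 116 and 130 CPM in Lkb1-/- cells. It was 236, 278 and 254 CPM in DKO A1 and 97.5, 143 and 149 CPM in DKO A2. DKO A1 thus lay between WT and Lkb1-/- with no overlap, while DKO A2 overlapped Lkb1-/-.

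Gadd45b, a stress-response gene that acts on MAP kinase signalling, was at 28.4, 28.8 and 25 CPM in untreated WT and 12.2, 12.3 and 10.2 CPM in Lkb1-/- cells. In DKO A1 it was at 24.3, 31.7 and 21.2 CPM, overlapping WT, and in DKO A2 at 16.1, 18 and 13.9 CPM, between Lkb1-/- and WT. Eef2, the elongation factor that moves the ribosome along mRNA, had the highest level per kilobase of the group (626 CPM per kb). It was at 2800, 2740 and 2470 CPM in untreated WT, 1690, 1690 and 1540 CPM in Lkb1-/- cells, 2190, 2310 and 2220 CPM in DKO A1, and 1580, 1840 and 1630 CPM in DKO A2. For Eef2, too, DKO A1 lay between WT and Lkb1-/- and DKO A2 overlapped Lkb1-/-. Among genes with a mean log2 CPM above 3, the others with the lowest fold changes in Lkb1-/- cells were the histone methyltransferase gene Dot1l (-1.33), Syde1 (-1.13), the acyltransferase gene Agpat3 (-1.12) and Plekhj1 (-0.97), with log2 fold changes in parentheses.

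Some genes were much higher outside WT. Plppr3 was at 0.112, 0.115 and 0.183 CPM in untreated WT, at 5.23, 6.22 and 7.31 CPM in Lkb1-/- cells, at 4.22, 6.91 and 7.95 CPM in DKO A1, and at 16.4, 28.1 and 32.1 CPM in DKO A2. Apc2, an APC relative best known from neurons, had 1 to 3 counts in each untreated WT library and 149 to 245 in each untreated Lkb1-/- library. Its level was 3.37, 5.2 and 5.83 CPM in Lkb1-/- cells, 7.24, 7.22 and 6.66 CPM in DKO A1 and 15.1, 20.1 and 22.4 CPM in DKO A2. Both genes were highest in DKO A2, and no library of an Lkb1-/- line overlapped WT.

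Efna2 was also highest in DKO A2, at 0.804, 0.944 and 1.17 CPM in untreated WT, 8.35, 11.6 and 11.4 CPM in Lkb1-/- cells, 7.83, 9.12 and 9.4 CPM in DKO A1 and 12.6, 17 and 18.2 CPM in DKO A2. Its values in Lkb1-/- cells and DKO A1 overlapped. Further large positive differences in untreated Lkb1-/- cells were those of Gamt, an enzyme of creatine synthesis (2.35), of the Groucho-family corepressor genes Tle2 (2.05) and Tle6 (2.03), and of Reep6 (1.38), all as log2 fold changes. In the opposite direction, Fstl3, a secreted inhibitor of activin, was nearly silent outside WT. It was at 12.3, 14.4 and 13.3 CPM in untreated WT and 0.385, 0.626 and 0.833 CPM in Lkb1-/- cells, and stayed between 0.537 and 1.56 CPM in the untreated clones.

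**Figure D2:**
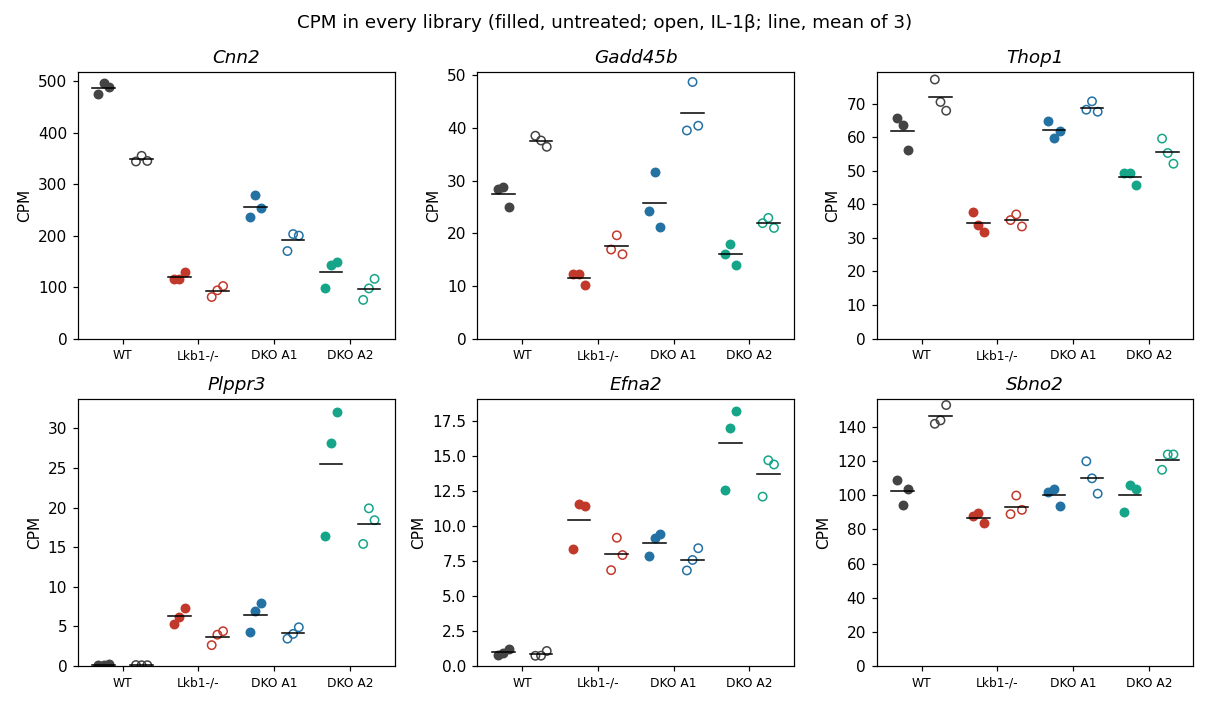
CPM of 6 genes near Stk11 in each of the 24 libraries, by line, with filled points for untreated, open points for IL-1β-treated libraries and a line for the mean of 3. Cnn2 and Gadd45b are lower in Lkb1-/- cells than in WT, Plppr3 is between 16.4 and 32.1 CPM in untreated DKO A2 and at most 0.183 CPM in WT, and Sbno2 after IL-1β is highest in WT.

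By role, 18 of 21 listed transcription and chromatin genes were tested, and 13 had a log2 fold change under 0 in untreated Lkb1-/- cells, with a median of -0.32. Nfic was at -0.50 and Mbd3, a subunit of the NuRD complex, at -0.47, while the E-protein gene Tcf3 was at 0.37. Of 15 tested RNA processing and translation genes, 13 were under 0, with a median of -0.62, which included Eef2 at -0.70, Ptbp1 at -0.62 and Rps15 at -0.58. Of 14 membrane traffic, lipid and metabolic genes, 11 were under 0 (median -0.49), and of 9 ubiquitin, chaperone and protease genes, 7 (median -0.45). Of 9 kinase and G protein genes, 5 were under 0 (median -0.25), such as Map2k2, which encodes the kinase MEK2, at -0.25. These lists were made with the earlier results known, and their medians are set beside the -0.34 of the 115 genes and support nothing.

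Of 8 tested ligand, receptor and inhibitor genes, 3 were under 0, and the values included -4.44 for Fstl3 and 3.43 for Efna2. Madcam1 had 0 counts in all untreated WT libraries and 11, 7 and 3 in untreated Lkb1-/- cells, and its level is at least 2.25-fold higher in Lkb1-/- cells when WT is set to a floor of 3 counts per library. Of the 5 tested neural genes, 1 (the channel gene Hcn2, at -3.14) was under 0, and Palm, a plasma membrane phosphoprotein gene, was at 1.19. Beside this list, the 3 neural markers Tubb3, Rbfox3 and Gfap summed to 0.0259 to 0.173 CPM in WT, 4.4 to 11.1 CPM in Lkb1-/- cells, 1.31 to 3.06 CPM in DKO A1 and 3.18 to 6.27 CPM in DKO A2, with Rbfox3 at most 0.0494 CPM and Gfap at most 0.162 CPM. The part of those markers in the result was not tested. Of the 5 blood cell granule and protease genes, 2 were tested, and Elane and Cfd had at most 5 and 3 counts in a library. Of 6 germ cell and testis genes, 3 were tested, at -0.36 to -0.24.

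The shift was seen in every Lkb1-/- library. Over the 82 genes with a mean log2 CPM above 3, the median difference from the mean of untreated WT was -0.44, -0.41 and -0.39 in the 3 untreated Lkb1-/- libraries and -0.53, -0.42 and -0.41 in the 3 treated ones. In the 6 WT libraries it was between -0.04 and 0.01. DKO A1 lay between -0.05 and 0.02, overlapping WT, and DKO A2 between -0.24 and -0.05, between WT and Lkb1-/-. Replicate 1 of untreated DKO A2 stood apart at -0.24, against -0.06 and -0.05 for the other 2. The genes of the other chromosomes had a median of -0.09 in that library, against -0.02 and 0.01, and in all 6 replicate 1 libraries outside WT this median was between -0.10 and -0.05. The 386 comparable genes from the rest of chromosome 10 lay between -0.67 and -0.54 in Lkb1-/- cells, between -0.25 and -0.13 in DKO A1 and between -0.42 and -0.27 in DKO A2.

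**Figure D3:**
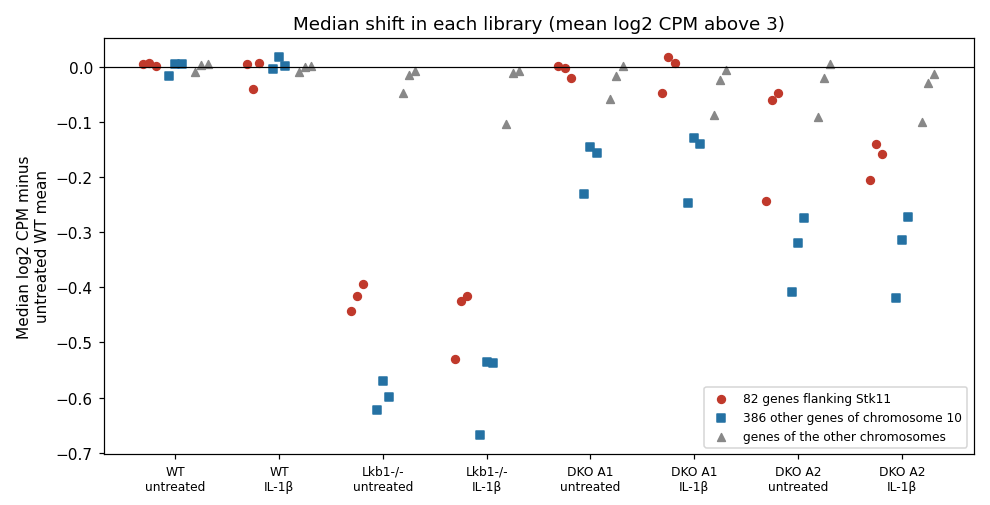
Median over genes of log2 CPM minus the mean of the untreated WT libraries, 1 point per library, for 82 genes flanking Stk11 (circles), 386 other genes of chromosome 10 (squares) and the genes of the other chromosomes (triangles). Both sets on chromosome 10 are lowest in Lkb1-/- libraries, where the circles lie between -0.53 and -0.39.

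The same direction ran along nearly the whole chromosome. Among 20 chromosomes (1 to 19 and X), chromosome 10 had the lowest median in Lkb1-/- against WT, at -0.47 untreated and -0.44 after IL-1β, and the next lowest untreated was chromosome 1 at -0.32. At the other extreme, chromosome 15 was at 0.39 untreated. In bins of 5 Mb, 24 of 26 bin medians were under 0 in untreated Lkb1-/- cells and 22 of 26 after IL-1β. Of the 10 bins with 20 or more genes, 9 were under 0 in both. The exception among these, with 21 genes and a median of 1.67 in untreated Lkb1-/- cells, had its centre 57.6 Mb before Stk11. The bins on either side of Stk11, at -0.31 and -0.37, lay within the range of the other bins.

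**Figure D4:**
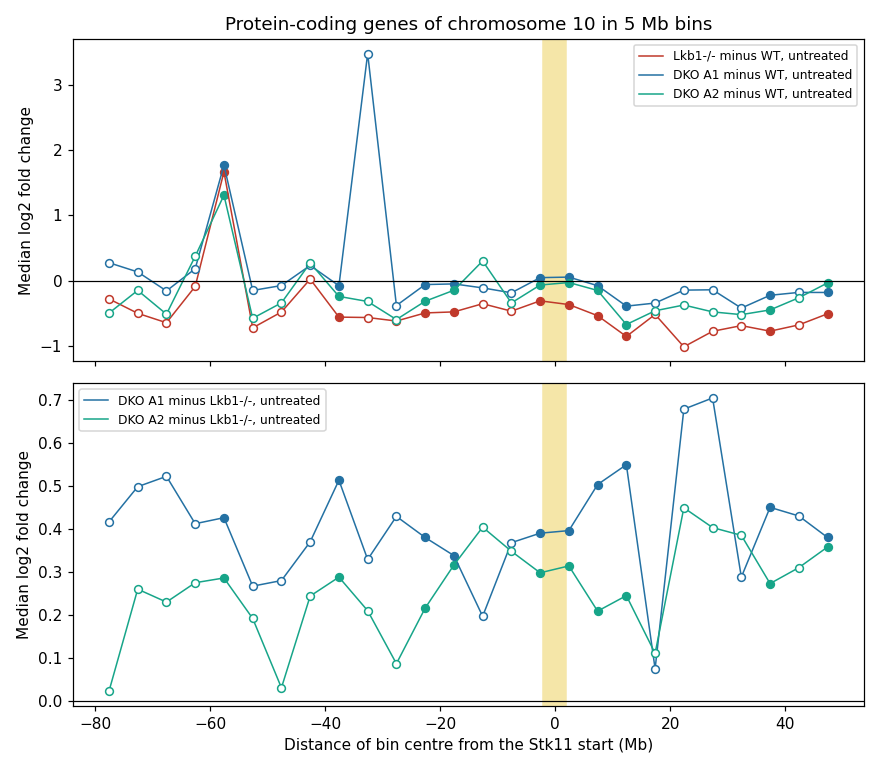
Median log2 fold change of protein-coding genes in 5 Mb bins of chromosome 10 in untreated cells, by distance of the bin centre from the Stk11 start in Mb, against WT (top) and against Lkb1-/- (bottom). Filled points have 20 or more genes, the band marks the interval around Stk11, and all 26 bins lie above 0 for both clones against Lkb1-/-.

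The clones were then compared with Lkb1-/- cells, the line from which they came. In untreated DKO A1, 64 of the 115 genes were higher than in Lkb1-/- cells by edgeR's quasi-likelihood test (false discovery rate, FDR, under 0.05), where 18.9% of all genes tested were. No gene was lower, where 16.4% of all genes were. For that 0, 72 genes had an unadjusted p under 0.05 in either direction, DESeq2 also called 0 lower, and with the replicate number as a block 1 was lower. After IL-1β, 71 were higher and 2 lower, beside 19.4% and 17.3%. In untreated DKO A2, 59 were higher and 1 lower, beside 17.1% and 15.1%, and after IL-1β 72 were higher and 1 lower, beside 17.1% and 15.8%. The same Lkb1-/- libraries are the reference for both clones. The interval was picked for being low in the Lkb1-/- line, so neither the counts nor the FDRs of single genes below, untreated or treated, are independent of that choice, and nothing is read from them about the interval.

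The median log2 fold change of the 115 genes was 0.39 in untreated DKO A1 and 0.40 after IL-1β, and 0.32 and 0.38 in DKO A2. The rest of chromosome 10 had medians of 0.42 and 0.40 in DKO A1 and 0.27 and 0.27 in DKO A2. Of its 528 genes, 330 were higher in untreated DKO A1 and 249 in untreated DKO A2. Chromosome 10 had the highest median of the 20 chromosomes in DKO A1 against Lkb1-/- (0.41 untreated, 0.40 after IL-1β) and the second highest in DKO A2 (0.28 and 0.29). Shifts of like size lay on other chromosomes. In untreated DKO A1 the medians of chromosomes 9, 11, 8, 17 and 19 were 0.349, 0.299, -0.374, -0.372 and -0.355. In untreated DKO A2 those of chromosomes 11, 8 and 19 were 0.355, -0.315 and -0.312. All 26 bins lay above 0 in untreated cells of both clones, as did all 26 after IL-1β in DKO A1 and 23 of 26 in DKO A2. The counts of higher genes lay between 48 and 69 whichever library was left out, while the counts of 0 to 2 lower genes moved between 0 and 2. A fit of the compared groups alone gave 46 higher in treated DKO A2.

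Among genes with a mean log2 CPM above 3, Gadd45b, Cnn2 and Thop1 had the largest rises in untreated DKO A1. Gadd45b was higher by 1.16 ± 0.13 on the log2 scale (SE of the fit, 3 libraries a group, FDR = 6.71e-07, edgeR) untreated and by 1.29 ± 0.13 (FDR = 1.3e-07) after IL-1β. Cnn2 was higher by 1.09 ± 0.14 (FDR = 4.21e-06). Thop1, a peptidase of the cytoplasm, was at 37.8, 33.8 and 31.7 CPM in untreated Lkb1-/- cells and 64.9, 59.8 and 61.9 CPM in DKO A1, a rise of 0.85 ± 0.07 (FDR = 2.89e-08), and WT held 65.6, 63.7 and 56.1 CPM. The ribosome biogenesis gene Wdr18 rose by 0.77 untreated, and Palm by 0.80 after IL-1β. For each of these 5 genes the DKO A1 libraries lay above all Lkb1-/- libraries of the same treatment.

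In DKO A2 other genes above that level led, with Plppr3 first. Plppr3 (mean log2 CPM 3.02) reached that level only through DKO A2, and Gamt (3.19) was also highest there. Their rank is therefore not independent of their rise. Plppr3 was higher than in Lkb1-/- cells by 2.03 ± 0.24 untreated (FDR = 1.54e-06) and 2.30 ± 0.24 after IL-1β (FDR = 4.5e-07). Apc2, from the neural list and just below that level, was higher by 2.0 ± 0.19 (FDR = 1.25e-07), Gamt by 1.05 ± 0.21 (FDR = 6.89e-04) and Btbd2, a BTB-domain gene, by 0.86 (FDR = 0.00142) untreated. The uncharacterised 2610008E11Rik rose by 0.78 untreated and Tle6 by 0.86 after IL-1β. Gadd45b rose by 0.47 ± 0.13 untreated (FDR = 0.00813), and Thop1 by 0.49 ± 0.07 (FDR = 3.97e-05). Below a mean log2 CPM of 3, Atp8b3 was higher by 1.67 in untreated DKO A1 and by 2.21 in DKO A2 (FDR = 2.81e-05 and 1.08e-06). Icosl, which encodes a costimulatory ligand, was likewise low but higher in both clones, at 0.603 to 0.973 CPM in untreated Lkb1-/- cells, 1.93 to 2.39 CPM in DKO A1 and 1.97 to 2.82 CPM in DKO A2 (log2 1.43 and 1.54).

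Arid3a, a DNA-binding protein of B cell development, was the exception among genes with a mean log2 CPM above 3. It was at 10, 9.04 and 10.8 CPM in IL-1β-treated Lkb1-/- cells, 7.5, 7.27 and 8.06 CPM in DKO A1 and 6.64, 6.52 and 8.67 CPM in DKO A2. It had a log2 fold change of -0.39 in DKO A1 (FDR = 0.00701) and -0.46 in DKO A2 (FDR = 0.00241) after IL-1β. Untreated, it was lower in DKO A2 (-0.38, FDR = 0.0105), a call that was lost without replicate 3 of untreated Lkb1-/- cells (FDR = 0.0578). Hcn2 was the other gene called lower in DKO A1 after IL-1β (-1.02, FDR = 0.047), and this call was lost without replicate 2 of treated Lkb1-/- cells (-0.57) and without each of the 3 treated DKO A1 libraries (-1.13 to -0.93).

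By role, the counts of higher genes are set beside the 18.9% of all genes tested that were higher in untreated DKO A1 and the 17.1% in untreated DKO A2, and nothing is read from them for a list of any size. Of the 18 tested transcription and chromatin genes, 10 were higher in untreated DKO A1 and 9 in DKO A2, with 0 and 1 lower. Of the 15 RNA processing and translation genes, 11 were higher in DKO A1 and 7 in DKO A2. Eef2 was among them in DKO A1 (0.45 ± 0.09, FDR = 5.06e-04), and in DKO A2 its log2 fold change of 0.04 did not pass the test. Of 14 membrane traffic, lipid and metabolic genes, 8 and 7 were higher, of 9 ubiquitin, chaperone and protease genes 7 and 5, of 9 kinase and G protein genes 3 and 5, of 8 ligand, receptor and inhibitor genes 3 and 5, of 5 neural genes 2 and 4, and of 3 germ cell and testis genes 1 and 1. Neither of the 2 blood cell genes tested was called. Among the 47 genes that were not tested, no statement can be made at this depth.

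DKO A2 was next set directly against DKO A1, without the WT and Lkb1-/- libraries as a reference. Untreated, 13 were higher and 26 lower, beside 15.8% and 16.7% of all genes tested, and after IL-1β 12 were higher and 21 lower, beside 15.1% and 15.6%. With the replicate number as a block the counts were 27 and 37 untreated, beside 23.1% and 23.1%, and 25 and 32 after IL-1β, beside 22.5% and 21.9%. Without replicate 1 of untreated DKO A2, 22 were higher. The median was -0.07 untreated and -0.02 after IL-1β, and in the rest of chromosome 10 it was -0.13 and -0.16.

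Plppr3 was higher in DKO A2 by 2.0 ± 0.24 untreated (FDR = 1.78e-06), Apc2 by 1.45 ± 0.19 and Efna2 by 0.86 ± 0.16 (FDR = 3.46e-04). With mean log2 CPM of 3.02 and 3.06, Plppr3 and Efna2 lie just above the naming level of 3, and both were highest in DKO A2. Their place among the genes named here is not independent of this difference. Tle2 was higher by 0.69 (FDR = 0.00276). After IL-1β the NAD-dependent deacetylase gene Sirt6 was higher by 0.29 (FDR = 0.00704). Tle6 (0.54, FDR = 0.0111) lost its call without replicate 3 of untreated DKO A2 (0.32). The call for Pdxk after IL-1β (0.26, FDR = 0.0485) was lost without treated replicates 1 or 2 of DKO A1 or 2 or 3 of DKO A2 (0.17 to 0.30), and Sirt6 did not pass with no filter on low counts (FDR = 0.136).

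On the other side, Cnn2 was lower in DKO A2 by 0.98 on the log2 scale (-0.98 ± 0.14, FDR = 1.7e-05). Gadd45b was at -0.69 ± 0.13 untreated and -0.97 ± 0.13 after IL-1β (FDR = 6.03e-06). The ubiquitin-conjugating enzyme gene Cdc34 was at -0.64 ± 0.08 (FDR = 4.5e-06), with 61.8, 61.8 and 61.9 CPM in untreated DKO A1 against 44.8, 35.1 and 39 CPM in DKO A2. Pwp2, needed for ribosome assembly, was at -0.52 (FDR = 0.00127) untreated. These genes are the extremes of the comparison, within an interval chosen on fold changes that include both clones, so their FDRs are not independent of the choice.

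The counts of genes called for IL-1β against untreated cells are given beside the share over all genes. In WT 4 genes were called, beside 2.26% of all genes tested, in Lkb1-/- cells 3 (4.74%), in DKO A1 1 (1.99%) and in DKO A2 6 (5.68%). The replicate numbers paired the libraries, and with the number as a block the counts rose to 20 in WT (9.3% of all genes), 24 in Lkb1-/- cells (14.8%), 15 in DKO A1 (9.61%) and 35 in DKO A2 (17.9%), which included all those called without it. With the block, 9 were higher and 11 lower in WT, 2 and 22 in Lkb1-/- cells, 4 and 11 in DKO A1, and 16 and 19 in DKO A2. The counts without the block also rested on single libraries. In WT the count was 1 without replicate 1 or 2 of the treated or replicate 2 of the untreated libraries and 2 without replicate 3 of the untreated. In Lkb1-/- cells it was 5, 1 and 0 without untreated replicates 1, 2 and 3 and 0 without treated replicate 2. In DKO A2 it was 20 without untreated replicate 1 and 2 without untreated replicate 3.

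Gadd45b had a higher mean level after IL-1β in all 4 lines. Without the block it was called in every line but WT, and with the block in WT as well. In WT it went from 28.4, 28.8 and 25 CPM to 38.5, 37.6 and 36.4 CPM, with no overlap. Its log2 fold change was 0.45 in WT (FDR = 0.0666), 0.60 in Lkb1-/- cells (FDR = 0.00629), 0.73 in DKO A1 (FDR = 0.00158) and 0.46 in DKO A2 (FDR = 0.0363). With the block it passed in all 4 lines, including WT (0.46, FDR = 3.03e-04). Without the block the call was lost in Lkb1-/- cells when untreated replicate 3 (0.52) or treated replicate 2 (0.51) was left out, and in DKO A2 without untreated replicate 3 (0.36) or treated replicates 1 or 2 (0.46 and 0.43).

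Sbno2 rose most in WT. It went from 109, 94.4 and 104 CPM to 142, 144 and 153 CPM in WT, a rise of 0.51 ± 0.07 (FDR = 2.31e-04) that was kept whichever WT library was left out. In Lkb1-/- cells it was at 87.9, 89.6 and 83.5 CPM before and 89, 99.9 and 91.5 CPM after, a log2 fold change of 0.10 (FDR = 0.599). In DKO A1 it was 0.14 (FDR = 0.554) and in DKO A2 0.28 (FDR = 0.0272), a call lost without untreated replicate 1 (0.23) or treated replicates 2 or 3 (0.27 and 0.29).

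With the block, 3 further genes passed in all 4 lines and fell in each, and they are named after their values were seen. Midn, a gene linked to protein turnover, had log2 fold changes of -0.27 in WT, -0.46 in Lkb1-/- cells, -0.40 in DKO A1 and -0.34 in DKO A2. Cnn2 had -0.48, -0.39, -0.42 and -0.43, and Gamt had -1.27, -0.53, -0.53 and -0.56. Without the block Midn was called only in Lkb1-/- cells (-0.46, FDR = 0.0261) and lost this without untreated replicates 2 or 3 or treated replicates 1 or 2 (-0.49 to -0.35). Gamt was called only in WT (-1.28, FDR = 0.0159) and lost it without untreated replicates 2 or 3 or treated replicates 1 or 2 (-1.27 to -1.04), and Cnn2 in no line.

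Other named genes passed only with the block. Plppr3 had a log2 fold change of -0.80 in Lkb1-/- cells (FDR = 5.83e-05), -0.61 in DKO A1 and -0.47 in DKO A2. Apc2 had -0.59 in Lkb1-/- cells and -0.56 in DKO A1, and Efna2 had -0.38 in Lkb1-/- cells. Palm fell in WT, Lkb1-/- cells and DKO A2 (-0.31, -0.39 and -0.26), as did Btbd2 (-0.40, -0.21 and -0.20). Tle2 (-0.50 and -0.48) and Fstl3 (-1.24 and -0.89) fell in Lkb1-/- cells and DKO A2, and Nfic (-0.20 and -0.19) in Lkb1-/- cells and DKO A1. On the other side, Pwp2 rose in WT, DKO A1 and DKO A2 (0.25, 0.20 and 0.32), Arid3a in WT and Lkb1-/- cells (0.38 and 0.31), and Thop1 in WT and DKO A2 (0.22 and 0.21).

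The remaining calls without the block were of low genes or of small size. They were Atp8b3 (1.04) and Gipc3 (-1.47) in WT, Shc2 (-1.55) in Lkb1-/- cells, and Dnmt3l (3.27), Gipc3 (-0.94), Rnf126 (0.22) and 2610008E11Rik (-0.40) in DKO A2. Dnmt3l, with 24, 13 and 21 counts in treated DKO A2 and at most 13 in any other library, passed the filter through the group in which it was called, and its call carries no weight among the 6. The first 5 values are of genes with a mean log2 CPM of at most 3, and each of these 7 calls was lost when at least 1 library was left out. The median response of the 115 genes was 0.03 in WT, -0.02 in Lkb1-/- cells, -0.03 in DKO A1 and 0.02 in DKO A2.

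**Figure D5:**
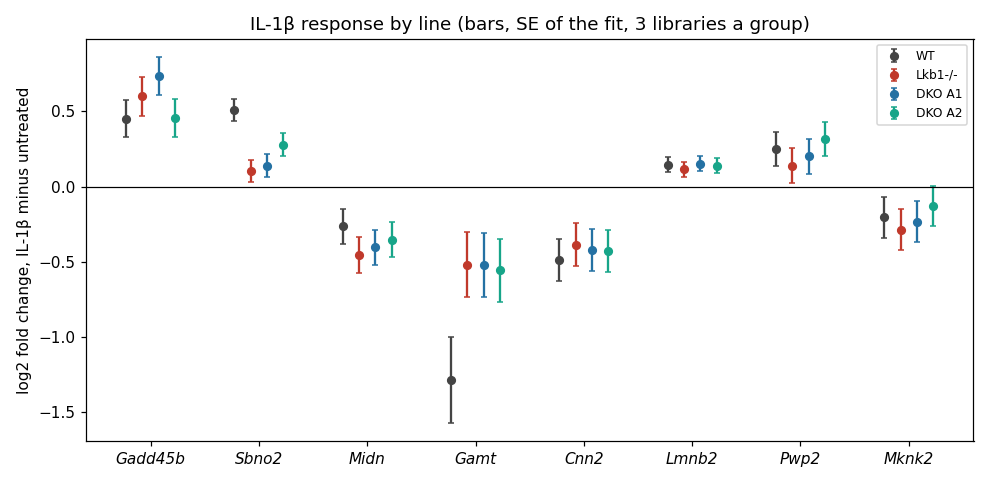
Log2 fold change of IL-1β-treated against untreated libraries in each line for 8 genes near Stk11, with bars for the SE of the fit (3 libraries a group). Gadd45b lies between 0.45 and 0.73 and Midn, Gamt and Cnn2 lie under 0 in all 4 lines, and Sbno2 is at 0.51 in WT and 0.10 in Lkb1-/- cells.

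Whether the response differed between lines was tested as an interaction. No gene near Stk11 passed by edgeR for Lkb1-/- against WT, DKO A1 against Lkb1-/- or DKO A2 against Lkb1-/-, where 0.245%, 0.0285% and 0% of all genes did. Unadjusted, 7, 0 and 2 of the 115 had p under 0.05, and DESeq2 called 0 in each. With the block, Sbno2 passed for Lkb1-/- against WT (-0.41 ± 0.10, FDR = 0.0294), beside 1.77% of all genes, and without it the FDR was 0.164. For Gamt, whose fall was largest in WT, the interaction did not pass without the block (0.77, FDR = 0.888). Nor did it pass with the block, where Sbno2 was the only call.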

How the data were processed

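RNA was measured in 24 libraries from 4 MEF lines. The deposited files hold raw read counts per gene as STAR writes them, which the authors made after trimming with Trim Galore 0.6.0 and alignment to mm10 (GRCm38) with STAR 2.7.8a. The labels name a SMARTER mRNA-Seq kit and the study's methods a KAPA kit with ribosomal RNA depletion, and the difference could not be settled. Counts of the strand that held 95.5 to 96% of stranded counts were used (the last column of each table). Rows that name no gene held 26.7 to 34.4% of reads and were left out. Gene names and positions came from GENCODE M21, the same build as the authors' M24 annotation, and matched 55230 of 55471 IDs. Totals of 38842901 to 48594394 counts per library set the counting precision, and SEs cover the spread between libraries.

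Counts were fitted with edgeR 4.0.16 in R 4.3.3 (filterByExpr by group with a minimum count of 10 and a minimum total of 15, TMM normalization, legacy quasi-likelihood fit, 1 model of the 8 groups), and p-values were adjusted by Benjamini-Hochberg over all 17522 genes. CPM came from edgeR with the TMM-scaled library sizes. The fit was tested on simulated data. No pair of libraries agreed within counting noise (chi-square per degree of freedom from 7.42 to 107). In every group replicates 2 and 3 were closest to each other (7.42 to 18.7), and pairs with replicate 1 lay at 37.7 to 107. The cause of this split was not tested. Same-numbered libraries deviated together from their group means over genes with a mean log2 CPM above 0: all 84 pairs had r from 0.114 to 0.711, so the numbers, which come from the titles, were taken to pair the libraries. Over all genes tested the lowest r was 0.0355 and 69 of 84 pairs passed 0.1. Blocked values are printed beside counts they move by over 1.5 times and for most named genes whose IL-1β call they change.

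Genes were named by a rule: the 6 tested genes nearest to Stk11 on each side, the 2 genes inside and outside each end, up to 6 a direction with the largest fold change of Lkb1-/- against WT, up to 4 a direction in each tested contrast (for the last 2, mean log2 CPM above 3), and 2 to 4 examples of each role list. Low genes outside this rule (such as Icosl, Hcn2, Fstl3, Madcam1, Atp8b3, Gipc3, Shc2 and Dnmt3l) were singled out after their values were seen. The genes and the role lists were chosen with earlier results of these data known. Alternatives were other strand counting, scalings, filters and edgeR methods, DESeq2 1.42.0, the replicate block, fits restricted to the compared groups, and omission of each library in turn.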

Additional observations from a re-analysis of the deposited data

Results flagged for a closer look

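The response of Sbno2 to IL-1β differed between Lkb1-/- and WT cells in the test of the difference itself, with the replicate number as a block (log2 difference -0.408, FDR = 0.0294 by edgeR's quasi-likelihood test over all genes). Without the block the same difference had an FDR of 0.164. With the block this was 1 of the 115 genes (0.87%), beside 1.77% of all genes tested, and DESeq2 called 0 of the 115. Nothing is read from the count about the interval. All 3 treated WT libraries were above all 3 untreated ones, at 142 to 153 against 94.4 to 109 CPM, and in Lkb1-/- cells the ranges were 89.0 to 99.9 and 83.5 to 89.6 CPM.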

How the results depend on the processing

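Values below are the median log2 fold change of the genes tested near Stk11, or how many of them were called. None of the 111 calls of named genes turned its direction under any of the 10 alternatives, or with 1 of the 24 libraries left out, where the gene still had a value (with at least 10 counts in every library, 91 held and 1 was lost), but the DKO A2 medians, close to 0, changed sign. DESeq2 size factors in edgeR and TMM without chromosome 10 left all 25 summaries within the spread or within 1.5 times. Unstranded counts gave untreated medians against WT of -0.419 (Lkb1-/-), 0.01 (DKO A1) and -0.051 (DKO A2). Upper quartile normalization gave -0.26, 0.155 and 0.074 untreated and -0.269, 0.211 and 0.117 after IL-1β, with 8, 3 and 10 genes responding to IL-1β in Lkb1-/- cells, DKO A1 and DKO A2. With no filter on low counts the medians were -0.194 and -0.293 for untreated and treated Lkb1-/- cells and 0.116 for untreated DKO A1, the IL-1β counts were 10 in WT, 13, 6 and 15, and 1 response differed between Lkb1-/- and WT cells. With at least 10 counts in every library the IL-1β counts were 5, 3 and 12 in the lines after WT, and DESeq2 gave 9 in WT, 6, 3 and 13. The newer quasi-likelihood method gave 10 in DKO A2. Fits of the compared groups alone gave 5 in Lkb1-/- cells, 4 in DKO A1 and 0 in DKO A2, 46 higher in treated DKO A2 than in Lkb1-/- cells, and 2 lower in untreated DKO A1. Lower genes in treated DKO A1 came to 1 under 4 of these (newer method, both filters and the compared groups alone). The cause of these moves was not tested.

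With the replicate block (the pairing by number) the fit gave IL-1β counts of 20, 24, 15 and 35 in WT, Lkb1-/- cells, DKO A1 and DKO A2. The block also gave 27 genes higher in untreated DKO A2 than DKO A1, 25 higher and 32 lower after IL-1β, 1 lower in untreated DKO A1 than Lkb1-/- cells, and 1 response that differed between Lkb1-/- and WT. The block ended none of the 111 calls of named genes and moved no other count by over 1.5 times.

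With 1 library left out, the untreated medians against WT ran from -0.421 to -0.356 (Lkb1-/-), 0.026 to 0.105 (DKO A1) and -0.066 to 0.031 (DKO A2), and the treated ones from -0.416 to -0.334 and -0.02 to 0.104 (Lkb1-/- and DKO A2). The untreated Lkb1-/- median of -0.336 with all libraries thus lay outside its own range, nearer to 0 than any of these refits. Higher genes in untreated DKO A2 against DKO A1 ran from 9 to 22. IL-1β counts ran from 1 to 4 in WT, 0 to 5 in Lkb1-/- cells and 2 to 20 in DKO A2. Lower genes against Lkb1-/- cells ran from 1 to 2 in treated DKO A1 and 0 to 2 in untreated DKO A2. Of the 111 calls of named genes, the compared groups alone ended 20, no filter 6, unstranded counts 5 and the newer method 4. Depth limits the genes near 0 counts, such as Dnmt3l and Shc2.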
